A study of Rattus norvegicus with 2 samples.

Results

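The natriuretic peptide system was followed through 7 genes, taken by symbol from the 25399 genes of the deposited matrices. They were the peptides *Nppa* (ENSRNOG00000008176), *Nppb* and *Nppc*, the receptors *Npr1*, *Npr2* and *Npr3*, and *Corin*. Cells from the hearts of neonatal Sprague-Dawley rats, 1 to 3 days old with males and females pooled, were enriched for intrinsic cardiac adrenergic (ICA) cells on a Percoll gradient. They were cultured for 2 h with saline (control) or with lipopolysaccharide (LPS, 1 µg/mL), a bacterial cell wall component, and each condition gave 1 single-cell library. By the study's methods the tissue was cut from the apex of the heart, so it was ventricular, and the rats were pooled. The study asked how ICA cells take part in the response of the heart to LPS.

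The atrial peptide ANP (*Nppa*) and the brain type peptide BNP (*Nppb*) are hormones of heart muscle that are released on stretch and stress, and both are abundant in the fetal and newborn ventricle. They bind the guanylyl cyclase receptor *Npr1*, which makes the messenger cGMP and thereby relaxes vessels, restrains growth of heart muscle and promotes salt excretion. The C-type peptide (*Nppc*) acts as a local signal through the related receptor *Npr2*, while *Npr3* removes the peptides from the extracellular fluid and *Corin* is the membrane protease that cuts the ANP precursor.

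*Nppa* and *Nppb* lie next to each other. In the RefSeq annotation of the rat build GRCr8, *Nppb* lies at chr5:163699955-163701314 and *Nppa* at chr5:163712184-163713493 on the same strand, with 10869 bases and 0 annotated genes between them. The build behind the counts was not given in the sources used here, so these positions describe the RefSeq genes and were not used to count reads. The sequences upstream of both genes are printed because these neighbours gave different ratios between the libraries in the same cells. They run 5′ to 3′ on the plus strand, and capitals mark the words AGATAA and TGATAA, which GATA factors of heart muscle such as *Gata4* are known to bind. The *Nppa* sequence covers chr5:163711934-163712183 (250 bases) and the *Nppb* sequence chr5:163699758-163699954 (197 bases), and both end before the first annotated transcript of the gene.
Nppa: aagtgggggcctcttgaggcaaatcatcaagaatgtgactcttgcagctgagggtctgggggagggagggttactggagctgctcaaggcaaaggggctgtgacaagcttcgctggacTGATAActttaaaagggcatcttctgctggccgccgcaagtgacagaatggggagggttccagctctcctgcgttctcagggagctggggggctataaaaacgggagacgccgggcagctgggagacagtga
Nppb: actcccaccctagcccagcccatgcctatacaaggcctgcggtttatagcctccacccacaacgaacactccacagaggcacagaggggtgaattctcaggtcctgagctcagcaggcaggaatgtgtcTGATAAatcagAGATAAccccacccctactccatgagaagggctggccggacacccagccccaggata

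The 250 bases before the start that the RefSeq promoter table uses held 1 GATA word for *Nppa*, beginning 132 bases upstream, and 2 for *Nppb*, beginning 121 and 110 bases upstream. For *Nppb* this start lies within the annotated gene, past the end of the 197 printed bases. Its distances therefore do not count from the end of the printed sequence, whereas those of *Nppa* do. On either strand, 16.9% of 33469 rat promoters held such a word. The word GGAATG, which TEAD factors bind in muscle genes, was found 1 time in the *Nppb* window (12.1% of all promoters) and was not found in that of *Nppa*. The AP-1 pattern TGANTCA, to which the stress-induced Fos and Jun proteins bind, was found in none of the 6 members' windows in the table (6.34% of all promoters), and *Nppc*, *Npr1*, *Npr3* and *Corin* held no GATA word and no GGAATG. The table holds no entry for *Npr2*. Such matches describe letters and do not show binding.

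The control library held 11531 cells and 152624585 unique molecular identifiers (UMIs), and the LPS library 12689 cells and 127580475 UMIs. Cells were grouped by the 11 clusters of the authors' cell table, of which clusters 0, 1 and 7 were named Fibroblast, cluster 3 ICA and Cardiomyocyte, clusters 4 and 5 Endothelial and cluster 6 Macrophages, and clusters 2, 8, 9 and 10 carried no cell type. Levels are given as CPM, the summed UMIs of a gene in a cluster per 1000000 UMIs of all genes there. Each UMI counts 1 transcript end, so no correction for gene length was made. With 1 library per condition there were no replicates and no test between conditions was possible. All intervals are exact 95% intervals, which describe counting error and nothing else. Treatment and library handling cannot be told apart. The libraries shared 194 cell barcodes.

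The labels call all cells ICA cells, but most were fibroblasts by the authors' table. Cluster 3 held 836 control and 929 LPS cells with all 9 measured cardiomyocyte markers, at a summed level of 11615 CPM in control and 12084 CPM in LPS cells, against 394 CPM or less in clusters 0 to 2, 4 to 8 and 10. Its ventricular markers included *Myl3* (1800 and 1835 CPM) and *Irx4* (55.1 and 57.3 CPM). *Myl2*, which usually defines the ventricular myocyte, had only 12 and 9 UMIs. The annotation behind the counts was not given, and how fully it covers *Myl2* was not tested, so this count is not read as absence. The atrial marker *Sln* had 9 and 0 UMIs, and *Bmp10* had 0 in both. Of the adrenergic markers, *Dbh* had 180 and 136 UMIs and *Ddc* 351 and 312 UMIs, while *Th*, *Slc18a1* and *Chga* had 0. Median mitochondrial shares were 17.9% and 17.3% of UMIs in cluster 3, against 4.13% or less in clusters 0 to 2, 4 to 8 and 10.

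*Nppa* was by far the most abundant member. In cluster 3 it had 14527 UMIs in control and 10836 UMIs in LPS cells, a level of 2052 CPM (2019 to 2086) and 1977 CPM (1940 to 2015). The LPS level was 0.96 times the control level (0.94 to 0.99). Cluster 9 followed with 358 CPM in control and 211 CPM in LPS cells, and its interval did not overlap those of the clusters above and below it in either library. Clusters 0 to 2, 4 to 8 and 10 lay together between 21.9 and 41.4 CPM. Among these, apart from the 16 control and 26 LPS cells of cluster 10, which were not ranked, neighbours in the order of levels had overlapping intervals.

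**Figure D1:**
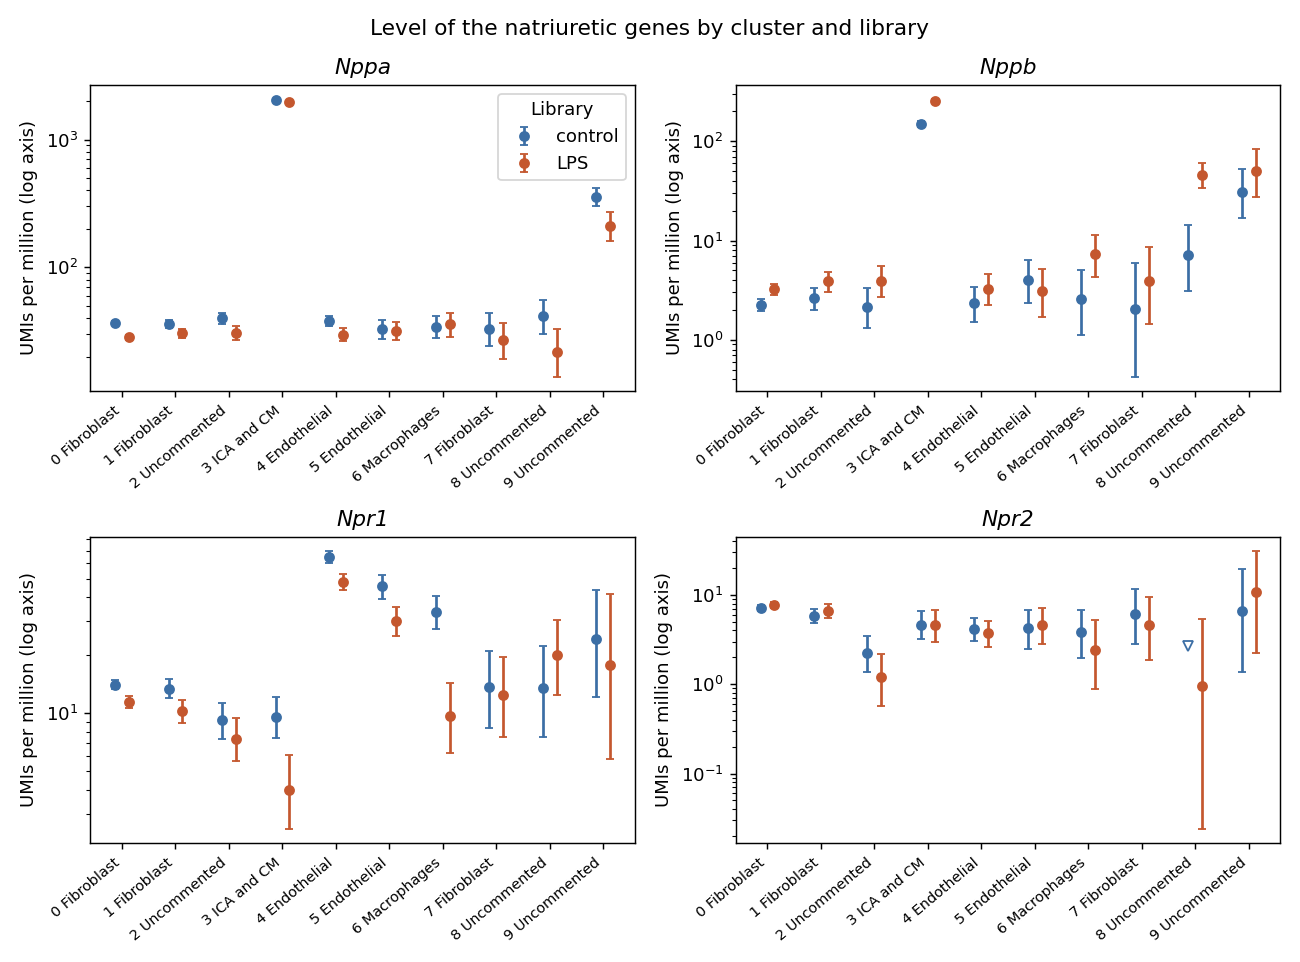
Level of *Nppa*, *Nppb*, *Npr1* and *Npr2* in UMIs per 1000000 UMIs (log axis) in clusters 0 to 9 of the control and LPS libraries, with exact 95% Poisson intervals as bars. An open triangle marks a count of 0 at the limit of 3 UMIs. *Nppa* and *Nppb* were highest in cluster 3 and *Npr1* in cluster 4, whereas *Npr2* was low in every cluster shown.

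The spread of *Nppa* over the cells of cluster 3 was wide. The median cell had 6 UMIs in control and 3 UMIs in LPS cells, and the highest had 355 and 393 UMIs, while 157 control and 246 LPS cells had none. The 10% of cells with the most *Nppa* held 53.1% of its control UMIs and 53.4% of its LPS UMIs. After each cell was thinned to 3000 UMIs, the share of cells with *Nppa* was 67.2% (63.9 to 70.4) in the control library and 66.0% (62.8 to 69.0) in the LPS library, against 81.2% and 73.5% without thinning. In the fibroblasts of cluster 0, used here as the background class, the thinned shares were 10.4% and 7.92%. The median cell of cluster 3 had 7526 (control) and 5269 (LPS) UMIs, and that of cluster 0 had 12968 and 9822.

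*Nppb* differed between the libraries where *Nppa* hardly did. In cluster 3 it had 1052 UMIs in control and 1387 UMIs in LPS cells, or 149 CPM (140 to 158) and 253 CPM (240 to 267), a ratio of 1.70 (1.57 to 1.85). After thinning, the share of cells with an *Nppb* UMI was 28.5% (control) and 38.9% (LPS), and without thinning 45.0% and 50.7%. Cells with at least 10 UMIs of *Nppb* numbered 12 in control and 14 in LPS cells. The 10% of cells with the most *Nppb* held 54.8% and 48.6% of its UMIs, so the higher level was not held by a few cells alone. In the fibroblasts of cluster 0 the thinned shares were 0.712% and 1.10%.

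**Figure D2:**
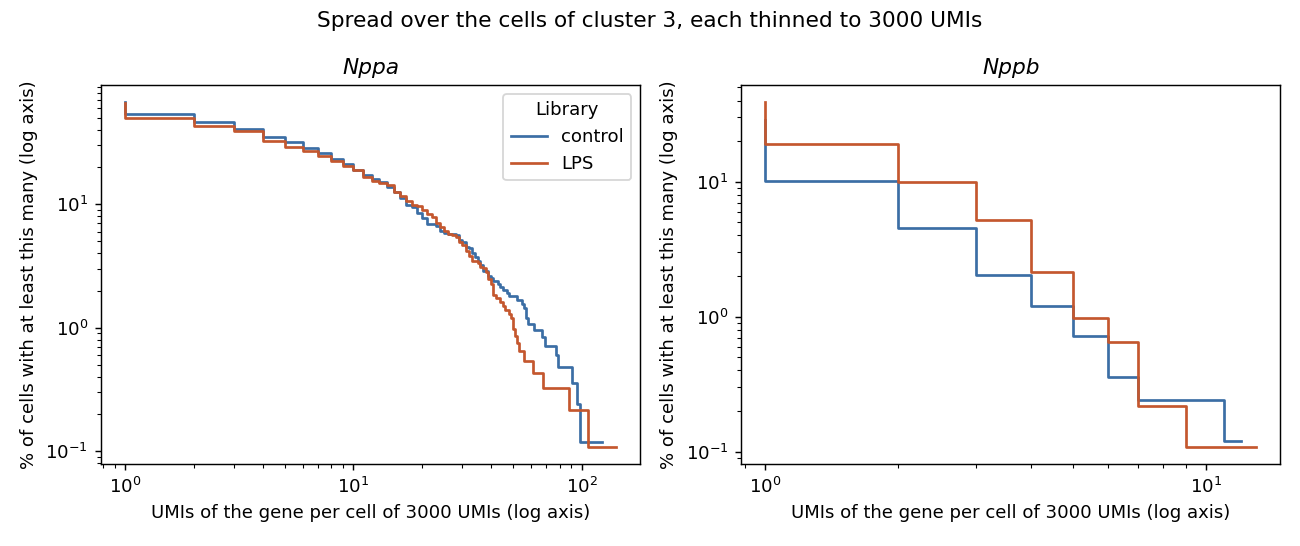
Share of the cells of cluster 3 (% of cells, log axis) that held at least the number of UMIs on the x axis (log axis) after thinning to 3000 UMIs per cell, for 836 control and 926 LPS cells. The lines for *Nppa* lie close to each other over most of the range. For *Nppb* the LPS line lies above the control line from 1 to 7 UMIs per cell.

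Of the 7 members, 4 reached 50 UMIs over both libraries in cluster 3, the minimum for counting ratios. *Nppb* was higher in LPS by 1.5-fold or more, and *Npr1* lower by 1.5-fold or more. *Npr1* reached the minimum mainly through its 68 control UMIs, beside 22 in LPS cells. Its place in this count therefore adds no support for a difference. Of all 8465 genes with 50 UMIs there, 4.36% were higher and 5.26% lower by this fold. The median log2 ratio of these genes was -0.0043, while that of the 4 members was -0.04.

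*Nppa* and *Nppb* were found together somewhat more often than by independent draws. Among thinned control cells of cluster 3, 178 held both, against 160.0 if the genes were independent, and among LPS cells 258 held both, against 237.5. *Nppb* was seen in 31.7% (27.8 to 35.7) of the control cells with *Nppa* and in 21.9% (17.1 to 27.3) of those without it. In LPS cells these shares were 42.2% (38.3 to 46.3) and 32.4% (27.2 to 37.9). Among the LPS cells with the most *Nppa*, a top group of 98 cells, 58.2% had *Nppb*, and among the control cells, a top group of 94 cells, it was 31.9%. Marker levels moved with both peptides. Between cells with and without a peptide the ratios were 1.03 to 1.09 for the cardiomyocyte markers, 1.12 to 1.20 for the ventricular markers and 0.81 to 0.90 for the fibroblast markers, each with an interval that left out 1. The atrial markers were higher in cells with *Nppa*, with ratios of 1.20 (1.07 to 1.35) in control and 1.28 (1.14 to 1.43) in LPS cells. For *Nppb* they were at 0.85 (0.75 to 0.96) and 0.93 (0.83 to 1.03). The part of these levels in the joint detection was not tested.

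Outside cluster 3, the levels of both peptides were set beside those of 8 cardiomyocyte markers of cluster 3. Free RNA in the droplets was not measured directly, and the markers themselves did not stand at 1 ratio to cluster 3. In the control cells of cluster 0, *Casq2* stood at 1.03% (0.87 to 1.21) and *Tnnc1* at 2.34% (2.27 to 2.41). *Nppa* in clusters 0 to 2 and 4 to 8 lay at 1.11% to 2.02% of its level in cluster 3, and the medians of the 8 markers lay at 1.37% to 3.32%. In cluster 0, where *Nppa* was at 36.6 CPM in control and 28.4 CPM in LPS cells with a ratio of 0.78 (0.73 to 0.82), the summed cardiomyocyte markers had a ratio of 0.82 (0.80 to 0.84). *Nppb* in cluster 0 was at 2.25 and 3.23 CPM with a ratio of 1.43 (1.18 to 1.73), and stood at 1.52% and 1.28% of its level in cluster 3. Relative to cluster 3, the low levels of both peptides in cluster 0 were thus within the range of these markers (1.03% to 2.34% in control and 0.487% to 1.86% in LPS cells).

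Cluster 8 departed from this for *Nppb*. It is a small cluster of 70 control and 81 LPS cells with the mesothelial or epicardial markers *Msln*, *Upk3b*, *Wt1*, *Upk1b* and *Krt8* at a summed 593 and 642 CPM, against 33.3 CPM or less in clusters 2 to 6 and 9. *Krt19* of the same list had 0 UMIs. There *Nppb* had 8 control and 48 LPS UMIs, or 7.20 CPM (3.11 to 14.2) and 45.7 CPM (33.7 to 60.6), a ratio of 6.35 (2.98 to 15.5). In control cells this was 4.84% (2.09 to 9.58) of its level in cluster 3, where the cardiomyocyte markers ran from 1.81% to 7.45%. The upper end was *Ryr2* on 2 UMIs, and the next was *Tnnc1* at 4.12% (3.41 to 4.94). In LPS cells it was 18.1% (13.3 to 24.1), and the highest of those markers stood at 2.22%.

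The *Nppb* UMIs of cluster 8 came from 6 control cells with at most 3 UMIs each and from 17 LPS cells with up to 11 UMIs each. Without the richest cell of each library, 5 and 37 UMIs remained. The 17 LPS cells had mesothelial markers at 674 CPM, against 632 CPM in the 64 LPS cells without *Nppb*, and cardiomyocyte markers at 215 CPM, against 239 CPM. *Nppa*, in contrast, had 46 control and 23 LPS UMIs in cluster 8, a ratio of 0.53 (0.31 to 0.89), beside a ratio of 0.59 (0.50 to 0.69) for the summed cardiomyocyte markers. Of all 3950 genes with 50 UMIs in cluster 8, 6.91% were higher and 6.78% lower by 1.5-fold or more, and *Nppb* and *Nppa*, the 2 members with enough UMIs, were 1 of each. *Nppb* reached that minimum only through its 48 LPS UMIs, beside 8 in control. *Nppa* likewise reached it only through its 46 control UMIs, beside 23 in LPS cells. The place of either gene in this count therefore adds no support for a difference.

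**Figure D3:**
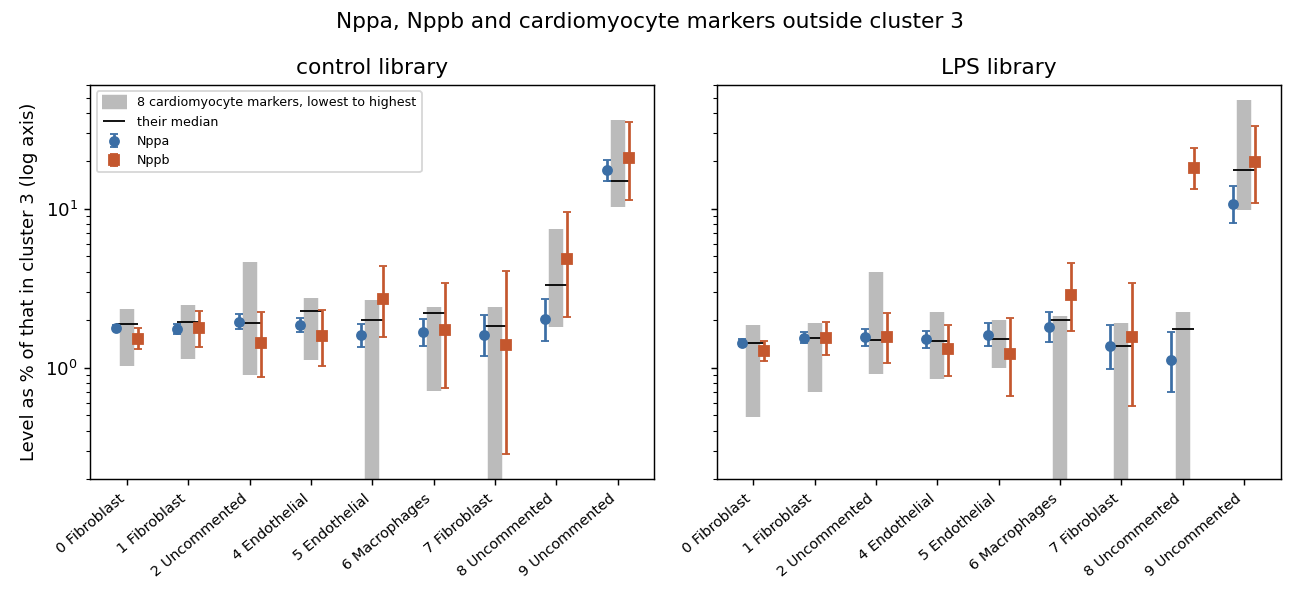
Level of *Nppa* and *Nppb* outside cluster 3 as a percent of the level in cluster 3 (log axis), with exact 95% intervals, in each library. Grey bars run from the lowest to the highest of 8 cardiomyocyte markers (to the lower edge where *Ryr2* had 0 UMIs) and black ticks mark their median; *Nppb* of cluster 8 in the LPS library, at 18.1%, stands above the grey bar, whose upper end is 2.22%.

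The other clusters gave less certain values for *Nppb*. Macrophages had 8 control and 18 LPS UMIs, a ratio of 2.82 (1.17 to 7.49), and stood at 1.73% and 2.86% of cluster 3. Cluster 2 holds smooth muscle and mural markers at a summed 2430 and 1221 CPM in control cells. There *Nppb* had 20 control and 33 LPS UMIs, a ratio of 1.84 (1.02 to 3.38). Of all 8930 genes counted in cluster 2, 5.78% were higher and 13.3% lower by 1.5-fold or more. *Nppb* reached the minimum for this count only through its 33 LPS UMIs, beside 20 in control. Its place among the higher genes of cluster 2 therefore adds no support for a difference. Cluster 9 had 14 UMIs in each library, and its *Nppa* gave 161 and 59 UMIs, a ratio of 0.59 (0.43 to 0.80), where 8.48% of 1674 genes were lower and 8.24% higher by 1.5-fold or more. That cluster had fibroblast markers at 17272 and 14504 CPM together with cardiomyocyte markers at 1640 and 1795 CPM. Whether its droplets held cells of both kinds was not tested.

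*Nppc* was rare, with 88 control UMIs in 36 cells of all clusters and 23 LPS UMIs in 17 cells. In cluster 2 it had 28 control UMIs in 6 cells, of which 17 UMIs were in 1 cell, and 13 LPS UMIs in 7 cells with at most 3 each. The 3 control and 4 LPS cells there with more than 1 *Nppc* UMI had smooth muscle markers at 11760 and 13929 CPM, against 2347 and 2291 CPM in the cells without *Nppc*. In cluster 0 the counts were 52 control UMIs in 23 cells, 24 of them in 1 cell, and 3 LPS UMIs in 3 cells. There the 5 control cells with more than 1 UMI also had a high level of smooth muscle markers (3601 CPM against 711 CPM in cells without *Nppc*). The few cells rich in *Nppc* were thus rich in contractile genes of smooth muscle in cluster 2 of both libraries and in cluster 0 of the control library. No LPS cell of cluster 0 had more than 1 *Nppc* UMI. The 3 LPS cells there with *Nppc* had smooth muscle markers at 782 CPM (541 to 1093), against 717 CPM in those without. The ratio of LPS to control in cluster 2 was 0.52 (0.25 to 1.03), but its direction turned when the richest cell of each library was left out (log2 ratio 0.02) or when every cell had the same weight (0.16). In cluster 0, *Nppc* was the only 1 of 6 members with 50 UMIs past 1.5-fold. Of all 12247 genes there, 19.7% were lower and 6.88% higher in LPS. *Nppc* reached that minimum only through its 52 control UMIs, 24 of them in 1 cell. Its place in this count therefore gives no support for a difference.

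*Npr1*, the ANP and BNP receptor, was led by the endothelial cells. Cluster 4 had 724 control and 469 LPS UMIs, a level of 65.1 CPM (60.4 to 70.0) and 48.2 CPM (43.9 to 52.7), with a ratio of 0.74 (0.66 to 0.83). Cluster 5 had 45.7 CPM (39.5 to 52.5) and 30.1 CPM (25.3 to 35.6), a ratio of 0.66 (0.53 to 0.82). The levels of these clusters did not overlap in either library. Cluster 4 was rich in capillary markers, with a summed 2853 CPM in control cells against 269 CPM in cluster 5, whereas cluster 5 had the higher level of endocardial markers (697 against 118 CPM). *Cytl1* of the endocardial list had 0 UMIs in both libraries of cluster 5. After thinning, the share of cells with *Npr1* was 19.8% (control) and 13.1% (LPS) in cluster 4, and 15.1% and 8.94% in cluster 5. The ratio of the summed endothelial markers between the libraries was 0.88 in cluster 4 and 0.83 in cluster 5. The summed capillary markers were at 1807 CPM in the LPS cells of cluster 4 and 87.9 CPM in those of cluster 5, ratios of 0.63 (0.62 to 0.65) and 0.33 (0.29 to 0.37), below those of *Npr1*. Their part in the lower *Npr1* was not tested.

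Among clusters with at least 20 *Npr1* UMIs, the ratio was lowest in macrophages. Cluster 6 had 104 control UMIs in 84 of 281 cells and 24 LPS UMIs in 23 of 291 cells, or 33.4 CPM (27.3 to 40.5) and 9.65 CPM (6.19 to 14.4), a ratio of 0.29 (0.18 to 0.45). No control cell had more than 3 UMIs and no LPS cell more than 2, so the counts did not rest on single cells. After thinning the shares were 11.7% and 2.07%. The control level was 51.3% (41.4 to 63.1) of that in cluster 4 and the LPS level 20.04% (12.7 to 30.2), while the median of 7 endothelial markers stood at 6.90% and 5.74%. The highest of these markers was *Esam* in both libraries, at 14.3% in control and 28.9% in LPS cells. The LPS level of *Npr1* lay below *Esam* and above the next marker, *Egfl7*, at 11.8%. The summed endothelial markers of cluster 6 were higher in LPS, with a ratio of 1.31 (1.15 to 1.48), but the single markers differed. *Esam* had 101 control and 236 LPS UMIs and *Cdh5* 60 and 65, in cluster totals of 3114592 and 2485786. *Egfl7* had 109 and 83, *Tie1* 106 and 59, *Cldn5* 56 and 38, *Emcn* 44 and 24 and *Kdr* 18 and 11. The macrophage markers of cluster 6 had a ratio of 1.21 (1.17 to 1.25). Many genes were lower in these cells, with 30.3% of 6385 genes lower and 8.79% higher by 1.5-fold or more and a median log2 ratio of -0.30, beside which the log2 ratio of *Npr1* was -1.79.

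**Figure D4:**
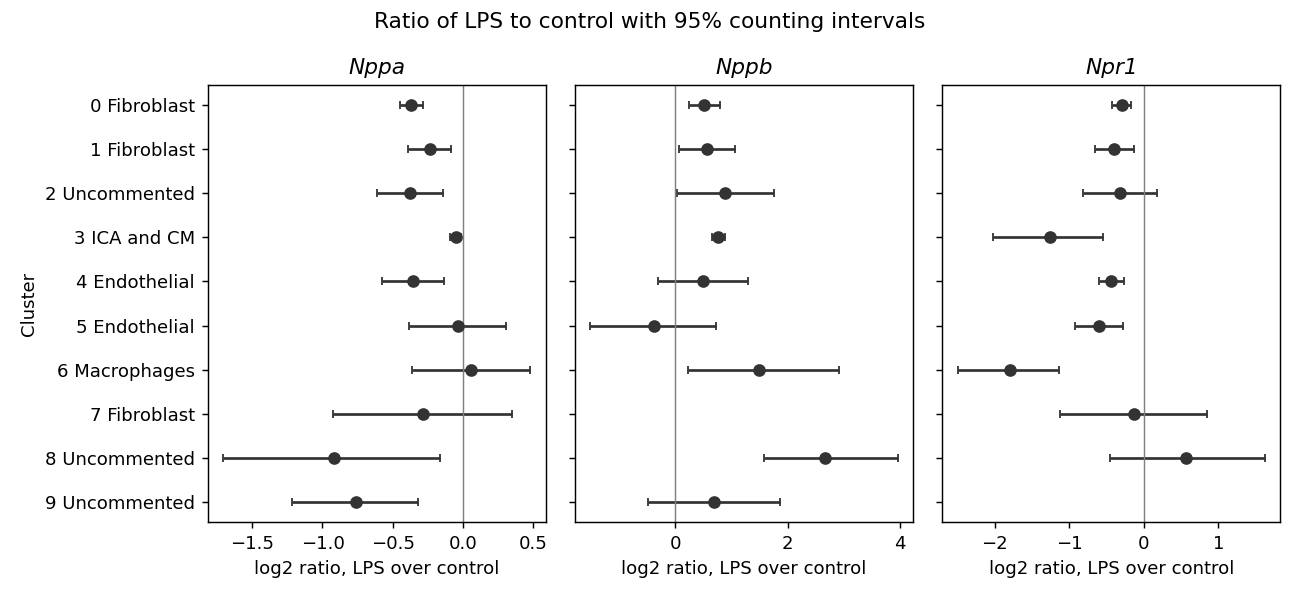
Log2 ratio of LPS to control for *Nppa*, *Nppb* and *Npr1* by cluster, with exact 95% intervals of the ratio as bars (counting error only). *Nppb* lies above 0 with its interval in clusters 0 to 3, 6 and 8, and *Npr1* lies below 0 with its interval in clusters 0, 1 and 3 to 6.

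*Npr1* was also counted in the fibroblasts and in cluster 3. In cluster 0 it had 14.1 CPM in control and 11.5 CPM in LPS cells, a ratio of 0.81 (0.74 to 0.89), and in cluster 1 the ratio was 0.76 (0.64 to 0.91). The control level in cluster 0 was 21.7% of that in cluster 4, above each of the 7 endothelial markers, the highest of which was *Egfl7* at 9.63%. In cluster 3 it had 68 control and 22 LPS UMIs, 9.61 CPM (7.46 to 12.2) and 4.01 CPM (2.52 to 6.08), a ratio of 0.42 (0.25 to 0.68). These levels were 14.8% and 8.33% of those in cluster 4, within the range of the endothelial markers in cluster 3, which reached 27.8% and 44.5% (*Kdr*). The next marker, *Egfl7*, stood at 7.88% and 7.42%. Whether the *Npr1* UMIs of cluster 3 came from heart muscle cells was not tested. The summed endothelial markers of cluster 3 had a ratio of 0.93 (0.84 to 1.03), but the single markers differed. *Kdr* had 165 control and 214 LPS UMIs, in cluster totals of 7078654 and 5480790. *Egfl7* had 211 and 115, *Cdh5* 160 and 117, *Tie1* 155 and 77, *Cldn5* 124 and 69, *Esam* 78 and 51 and *Emcn* 48 and 36. The summed capillary markers there had a ratio of 0.59 (0.53 to 0.67). Their part in the lower *Npr1* of cluster 3 was not tested. In cluster 8 *Npr1* had 15 and 21 UMIs with a ratio of 1.48 (0.73 to 3.09), an interval that includes no difference. Beside this, *Npr1* was lower by 1.5-fold or more in clusters 3, 5 and 6, and 13% of 7824 genes were so in cluster 5 (9.5% were higher). Clusters 1 and 4 each had 4 members with at least 50 UMIs over both libraries, and cluster 7 had only *Nppa*. None of these passed 1.5-fold in either direction, and members with fewer UMIs were not counted. Of all genes with this minimum, 6.42% were higher and 13.1% lower in cluster 1, and 5.58% and 13.1% in cluster 4. In cluster 7 these shares were 10.4% and 11.6%.

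*Npr2*, the receptor of the C-type peptide, was low, with its highest well-counted level in the fibroblasts. Cluster 0 had 641 control and 568 LPS UMIs, or 7.08 CPM (6.55 to 7.65) and 7.70 CPM (7.08 to 8.36), a ratio of 1.09 (0.97 to 1.22). Cluster 1 had 5.83 and 6.60 CPM. Cluster 3 had 4.66 CPM in control and 4.56 CPM in LPS cells, and cluster 2 had 2.24 CPM (1.39 to 3.43) and 1.19 CPM (0.57 to 2.19), intervals below those of cluster 0 in both libraries. Cluster 8 had 0 and 1 UMIs. In cluster 3 the levels were 65.8% (44.9 to 93.4) and 59.2% (38.0 to 88.4) of those in cluster 0, on 33 and 25 UMIs. The medians of 8 fibroblast markers stood there at 36.2% and 36.6%. The highest of them, *Postn*, at 46.8% and 53.2%, lay within the intervals of *Npr2*. By mean CPM cluster 9 led, but on 3 UMIs in each library, so that its place in the order cannot be read. No ratio of *Npr2* had an interval that left out no difference.

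*Npr3* and *Corin* were close to absent from the counts. *Npr3* had 50 control and 48 LPS UMIs in all, of which 29 in each library were in cluster 0, at 0.32 and 0.39 CPM. Cluster 8 (2 and 3 UMIs) and cluster 5 (5 and 3 UMIs) had higher levels. In control the intervals of both overlapped that of cluster 0, as did that of cluster 5 in LPS cells, whereas cluster 8 in LPS cells, at 2.86 CPM (0.59 to 8.35), did not overlap cluster 0 (0.26 to 0.56). *Corin* had 4 control and 2 LPS UMIs, all in cluster 0. In cluster 3, where *Nppa* was abundant, *Corin* had 0 UMIs in both libraries, which allows up to 0.42 CPM in control and 0.55 CPM in LPS cells (3 UMIs). *Npr3* had 0 and 1 UMIs there. The ratio of *Npr3* between the libraries was 1.23 (0.71 to 2.13) in cluster 0 and 1.15 (0.76 to 1.74) over all cells, intervals that include no difference. *Corin* had too few UMIs to be compared.

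The other genes of the pathway were read from a list of 42 symbols, 38 of which are in the gene list. Of those with 50 UMIs, 1 of 22 was higher and 2 were lower by 1.5-fold or more in cluster 3, 2 of 31 higher and 12 lower in cluster 0, and 1 of 10 higher and 5 lower in cluster 6. In cluster 4, 2 of 22 were higher and 7 lower, against 5.58% and 13.1% of all 9492 genes. The shares of all genes that were higher and lower were 4.36% and 5.26% in cluster 3. They were 6.88% and 19.7% in cluster 0, and 8.79% and 30.3% in cluster 6. The median log2 ratio of the list was 0.00 in cluster 3, -0.32 in cluster 0, -0.35 in cluster 4 and -0.58 in cluster 6. That of all genes tested was -0.0043 in cluster 3, -0.13 in cluster 0, -0.09 in cluster 4 and -0.30 in cluster 6.

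The proteases that cut the peptide precursors gave small differences in cluster 3. *Furin*, which processes the BNP precursor, was at 231 CPM in control and 250 CPM in LPS cells of cluster 3, a ratio of 1.08 (1.01 to 1.16). In macrophages it was at 71.3 and 31.0 CPM, a ratio of 0.43 (0.33 to 0.57). *Pcsk6*, which activates corin, was at 21.0 and 20.1 CPM in cluster 3. Of the enzymes that break the peptides down, neprilysin (*Mme*) had 86 and 79 UMIs in cluster 0 and 2 UMIs in each library of cluster 3, and *Ide* was at 70.8 and 62.6 CPM in cluster 3. *Ostn*, the gene of another ligand of *Npr3*, did not reach 50 UMIs in any cluster.

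Several enzymes that degrade cGMP differed between the libraries. *Pde9a*, which is selective for cGMP, had 794 control and 2000 LPS UMIs in cluster 0, a ratio of 3.09 (2.85 to 3.36), and 32 and 67 UMIs in cluster 3, a ratio of 2.70 (1.75 to 4.26). The other 5 phosphodiesterases with 50 UMIs in cluster 0 (*Pde1a*, *Pde2a*, *Pde3a*, *Pde3b* and *Pde5a*) had ratios from 0.14 for *Pde3a* to 0.58 for *Pde5a*. *Pde2a*, which cGMP itself activates, was at 136 and 70.6 CPM in the endothelial cells of cluster 4, a ratio of 0.52 (0.47 to 0.57), and at 82.8 and 28.3 CPM in cluster 5, a ratio of 0.34 (0.28 to 0.42). The subunits *Gucy1a1* and *Gucy1b1* of soluble guanylyl cyclase, the cGMP source driven by nitric oxide, were at ratios of 0.31 (0.26 to 0.37) and 0.33 (0.28 to 0.39) in cluster 0. *Vasp*, a target of the cGMP-dependent kinase, was higher in macrophages (217 and 421 CPM, a ratio of 1.94, 1.76 to 2.14). The gene of that kinase, *Prkg1*, is not in the gene list.

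The transcription factors known at the natriuretic genes had similar levels in both libraries of cluster 3. *Gata4* was at 88.7 and 92.0 CPM there, a ratio of 1.04 (0.92 to 1.17), *Nkx2-5* at 121 and 134 CPM, a ratio of 1.11 (1.00 to 1.22), and none of the 6 with 50 UMIs was past 1.5-fold. In cluster 8 *Gata4* had 80 control and 48 LPS UMIs, a ratio of 0.64 (0.43 to 0.92). Among the fetal and stretch genes of cluster 3, *Ankrd1*, a stress-responsive partner of the titin filament, was at 1106 and 1445 CPM, a ratio of 1.31 (1.27 to 1.35). *Myh7*, the fetal myosin of the rat ventricle, had a ratio of 1.05 (1.03 to 1.08) and skeletal actin (*Acta1*) one of 0.81 (0.72 to 0.90). None of these 7 genes was past 1.5-fold in cluster 3. Of all 8465 genes there, 4.36% were higher and 5.26% lower by this fold, with *Nppb* among the higher ones.

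The genes whose levels were most like those of each member were ranked by Pearson's r of log2(CPM + 1) over 20 classes (10 clusters in each library) among 11302 genes. For *Nppa* these were *Cox8b* (0.994), *Actc1*, *Tnni1*, *Klhl31* and *Dusp27*, and for *Nppb* they included *Pde4dip* (0.960), *RGD1304963*, *Epb41l4b* and *Dsp*. Between *Nppa* and *Nppb* r was 0.862. The closest gene to *Npr1* was *Git2* (0.901), and the closest to *Npr2* was *AABR07021503.1* (0.832). The classes share libraries and free RNA, and these values describe the pattern alone.

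Within the leading clusters, the genes that were highest in cells with a UMI of the member in control seldom kept their ratio in LPS cells. These genes were picked by their control ratio, so lower ratios in LPS cells are expected from the choice alone. The control intervals do not allow for this choice, and no difference between the libraries is read from them. Of the 5 such genes for *Nppb* in cluster 3, *Dbh*, the enzyme that makes noradrenaline, had a ratio of 2.75 (1.64 to 4.64) between cells with and without *Nppb* in control and 1.30 (0.81 to 2.04) in LPS cells. The other 4 included 3 globin genes, with up to 413 UMIs of 1 gene in a single cell. For *Nppa* the first was *Reg3b*, with 3.30 (2.197 to 5.33) in control and 1.66 (1.28 to 2.19) in LPS cells.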

How the data were processed

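Cardiac cells of neonatal rats gave 2 libraries (10X Genomics 3′ kit), 1 per condition. The deposited counts are raw UMIs per gene and cell, which the authors made without normalization, and the submitters' processing notes name Cell Ranger 2.2.0 and Seurat 2.3.4. Genome build and annotation were not given in the sources used here. Clusters are the authors' own (Seurat, canonical correlation analysis); 2 control and 8 LPS cells without a cluster were left out. UMIs were summed per cluster and library in Python 3.11.15 (numpy 2.4.6, scipy 1.17.1, pandas 2.3.3). The 95% intervals were Clopper-Pearson intervals for shares, exact conditional ones for ratios and exact Poisson ones for levels, and 3 UMIs were taken as the limit that a 0 allows. The least and most UMIs in a cell were 3682 and 70604 (control) and 2821 and 46594 (LPS). For shares, each cell was thinned to 3000 UMIs, which left out 79 LPS cells. Background counts used genes with at least 50 UMIs over both libraries of a cluster, with 0.5 UMI added to each sum. The interval procedure was run on simulated Poisson counts, which follow its own assumption. That run does not cover UMIs spread unevenly over cells or differences between libraries. No test between conditions was made.

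All 7 members, a pathway list and marker lists were named, and like genes were the 5 with the highest r; members, lists and motifs were chosen with earlier results of these data known. *Ttn*, *Pecam1* and *Cd36* of the marker lists are not in the gene list. No doublet caller was run; the 5% of cells with the most UMIs, or cells with at least 50% of another type's marker level, were left out as alternatives. Other alternatives were the mean of the cells' own CPM, no mitochondrial UMIs in the denominator, median-of-ratios scaling, cells with at most 20% mitochondrial UMIs, no richest cell, thinned counts, all cells, 1500 UMIs or no thinning, and a minimum of 200 UMIs. Promoter sequences are from RefSeq (GRCr8), in which 6 of 7 members had an entry. A few genes that these rules named are not reported here.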

Additional observations from a re-analysis of the deposited data

How the results depend on the processing

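No paired analysis was possible because only 1 library per condition was made. Over 10 log2 ratios and 90 alternative values, 77 moved by less than the counting interval, 13 moved by more and 5 had another sign, all of them for *Nppc* in cluster 2, where single cells set the count. For that gene the log2 ratio, -0.95 as reported, was 0.16 as the mean of the cells' own CPM, 0.55 without the 5% of cells with the most UMIs, 0.79 without cells holding markers of another type and 0.25 after thinning. With cells of at most 20% mitochondrial UMIs, cluster 3 gave -0.11 for *Nppa* and 0.91 for *Nppb*. After thinning, *Npr1* was at -0.71 in cluster 4 and -2.59 in cluster 6, and with median-of-ratios scaling at -0.17 in cluster 0. Over all cells of each library, which mixes the clusters, the values were -0.21 for *Nppa*, 0.66 for *Nppb* and -0.38 for *Npr1*. Shares depend on depth. Without thinning and at 1500 UMIs, *Nppa* in cluster 3 was seen in 81.2% and 59.3% of control and 73.5% and 54.9% of LPS cells, *Nppb* in 45.0% and 18.4% of control and 50.7% and 26.3% of LPS cells, and *Npr1* in cluster 4 in 55.7% and 11.1% of control and 38.4% and 5.95% of LPS cells. For *Npr1* in cluster 6 they were 29.9% and 5.69% of control cells, and 7.90% of LPS cells without thinning. With a minimum of 200 UMIs, fewer genes were counted. These were 158 higher and 107 lower in cluster 3, and 517 lower in cluster 4. In cluster 6 they were 295 higher and 605 lower, and in cluster 8, 46 higher and 29 lower. No share of all genes is given for this minimum. It left out *Npr1* in clusters 3 and 6 (90 and 128 UMIs over both libraries). In cluster 8 it left out *Nppb* and *Nppa* (56 and 69 UMIs). Apart from shares and counts of genes, the causes were not tested.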
